A study of Mus musculus with 15 samples.

Results

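The endothelin ligand Edn1, its converting enzyme Ece1 and the receptors Ednra and Ednrb were followed through the cell classes of the embryonic mouse heart. These 4 genes, chosen by name, are among 16809 genes in the joined Drop-seq table, and all 4 were detected. In Drop-seq each cell's messenger RNA is caught on a bead whose barcode names the cell, and molecules are counted by unique molecular identifiers (UMIs). The knockout (KO) group comprised 8 libraries of whole E14.5 hearts labelled Adamts19-/-, of which 4 carried the allele tm4b (replicates 5 to 8, litter 7) and 4 the allele tm4a (replicate 1 from litter 5, replicates 2 to 4 from litter 6). The wild-type (WT) group comprised 7 libraries labelled Adamts19+/+, from litters 1 to 4. All embryos had the C57BL6/N background. Each genotype and each allele came from litters of its own, so genotype and allele cannot be told apart from litter. A single flow cell carried all 8 KO libraries together with WT replicate 5, and none of the remaining 6 WT libraries ran on it. The labels used here do not say how many embryos a library holds.

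Endothelin-1 is made as a large precursor. Furin-type proteases release big endothelin-1, and the membrane metalloprotease Ece1 cuts this to the active peptide, which acts on nearby cells through G protein-coupled receptors. Ednra, the receptor of smooth muscle, cardiomyocytes and neural crest cells, couples to Gq and its relatives and drives contraction and growth. Ednrb, the receptor of endothelial cells, also releases nitric oxide and removes the peptide, and it is needed by melanoblasts and by the neural crest cells of the gut. In mouse embryos, loss of Edn1, Ece1 or Ednra disturbs the pharyngeal arches and the outflow tract and great arteries of the heart.

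On mm10, by the GENCODE annotation, Edn1 (ENSMUSG00000021367) lies on chromosome 13 from 42301476 to 42307990 on the + strand, and Ece1 (ENSMUSG00000057530) on chromosome 4 from 137862237 to 137965229 on the + strand. Ednra (ENSMUSG00000031616) lies on chromosome 8 from 77663031 to 77724464 on the - strand, and Ednrb (ENSMUSG00000022122) on chromosome 14 from 103814625 to 103844402 on the - strand. The 250 bases before the annotated start of Edn1, at chr13:42301226-42301475, and before the first of 4 listed starts of Ece1, at chr4:137861987-137862236, are shown because these 2 genes had the higher KO over WT values of the 3 tested in endocardial-like cells. All sequences are from RefSeq (GRCm38.p6), + strand, 5′ to 3′. Capitals mark CACCC on either strand (CACCC or GGGTG), the core bound by Krüppel-like factors such as Klf2, a flow-induced endothelial factor known to lower Edn1.
Edn1 upstream: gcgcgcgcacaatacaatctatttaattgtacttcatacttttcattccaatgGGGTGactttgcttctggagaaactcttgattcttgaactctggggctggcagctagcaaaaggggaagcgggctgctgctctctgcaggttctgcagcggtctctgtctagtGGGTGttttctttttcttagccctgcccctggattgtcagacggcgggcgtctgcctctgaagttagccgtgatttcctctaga
Ece1 upstream: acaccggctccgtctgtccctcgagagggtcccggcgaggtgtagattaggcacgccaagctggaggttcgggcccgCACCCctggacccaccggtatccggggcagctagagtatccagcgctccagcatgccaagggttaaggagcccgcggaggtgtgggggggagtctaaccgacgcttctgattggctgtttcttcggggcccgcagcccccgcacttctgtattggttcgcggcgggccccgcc
There were 2 matches before Edn1 and 1 before Ece1, and 52.0% of the first 250 bases of the 32851 listed promoter windows held at least 1. Downstream of the Edn1 start, in the annotated 5′ UTR within exon 1, stretches of 20 bases are shown for the motif of GATA factors (AGATAA, read as TTATCT on this strand, at chr13:42301477-42301496) and for an AP-1-type motif (TGACTAA, at chr13:42301505-42301524), again in capitals. GATA and AP-1 sites are known from the human EDN1 promoter, and whether these matches are bound was not measured.
Edn1 GATA motif: ccgggtcTTATCTctggctg
Edn1 AP-1-type motif: ctgtgggTGACTAAtcacac
Over all 32851 windows of 300 bases, 11.2% held AGATAA and 2.35% held TGACTAA on either strand. The AGATAA and TGACTAA matches do not overlap each other. CACCC was marked only in the 250 bases before each start. The AP-1-type stretch also holds an unmarked GGGTG, which shares the bases TG with TGACTAA.

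The table held 55152 barcodes, with totals between 5477109 and 11340443 UMIs per library. After filtering, 50775 cells were kept, 28394 of them KO and 22381 WT. They formed 21 clusters, which were assigned to classes by marker genes, and a class is called "X-like" because no annotation by the authors was used. The 4 genes and their close relatives were kept out of the clustering and of the naming of clusters, so their levels did not define the classes. Adamts19 averaged 6.61 ± 1.28 CPM (UMIs of the gene per 1000000 UMIs of the cells) over all kept KO cells (SD, n = 8 libraries) and 29.4 ± 12.4 CPM over WT cells (n = 7), and the ranges did not overlap. Of the barcodes, 186 carried 1 of 87 sequences that occur in more than 1 library. The doublet caller marked only 0.244% of cells, so doublets were mostly not recognised. Median depth was lower in KO than in WT libraries in all 9 classes tested, for example 1402 ± 288 and 1839 ± 413 UMIs per endocardial-like cell (SD over libraries).

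Edn1 RNA came mainly from the endothelium of the valves and the endocardium. Valve endothelial-like cells (led by Hapln1, Pthlh and Aqp1) held 31.7% of the 6156 Edn1 UMIs and endocardial-like cells (led by Emcn, Npr3 and Plvap) 30.5%, although these were 1629 and 5606 cells. As CPM of the class's own UMIs, Edn1 averaged 559 ± 161 in valve endothelial-like, 159 ± 50.1 in endocardial-like and 57.9 ± 28.5 in vascular endothelial-like cells (SD, n = 15 libraries). Valve endothelial-like cells were above endocardial-like cells in 15 of 15 libraries, by 1.76 ± 0.52 on the log2(CPM + 10) scale, and endocardial-like above vascular endothelial-like cells in 15 of 15, by 1.38 ± 0.57. Both steps passed a two-sided exact sign-flip permutation test over the libraries, each at adjusted p = 9.99e-05 over the 144 pairs of classes compared for the 4 genes.

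Below the endothelium, neighbouring classes were not resolved for Edn1. Macrophage-like cells (35.5 ± 39.4 CPM), fibroblast-like cells (32.1 ± 11.96), epicardial-like cells (25.7 ± 29.5), cardiomyocyte-like cells (16.9 ± 6.30), valve interstitial-like cells (14.1 ± 7.71) and mural-like cells (13.7 ± 7.85) followed. The step from vascular endothelial-like to macrophage-like cells had adjusted p = 0.0505, with the higher value in 11 of 15 libraries, and no step between neighbours further down passed the threshold of 0.05. Since cells differ in depth, cells with fewer than 1000 UMIs were left out and the others thinned to 1000 UMIs, which left 1109 of 1629 valve endothelial-like cells. Of these, 27.3% had an Edn1 UMI (95% exact binomial interval 24.7 to 30.05), against 10.97% of endocardial-like, 5.76% of vascular endothelial-like and 1.74% of erythroid-like cells, a class that should lack the gene. Without thinning the shares were 33.5%, 17.7%, 8.82% and 3.63%. Fibroblast-like cells, which held 8.51% of the Edn1 UMIs, were at 2.96% (2.499 to 3.48), macrophage-like cells at 2.60% (1.57 to 4.03) and epicardial-like cells at 1.79% (1.11 to 2.73), and these intervals overlap that of the erythroid-like share (0.754 to 3.40). Cardiomyocyte-like cells, which held 16.9% of the Edn1 UMIs, were at 1.64% (1.44 to 1.85). Mural-like cells were at 1.02% (0.669 to 1.49) and valve interstitial-like cells at 0.885% (0.568 to 1.31). These shares lay at or below the erythroid-like share, and their intervals lay below that of fibroblast-like cells. Edn1 in these classes outside the endothelium cannot be told apart from background by this measure. Intervals of shares cover counting error only.

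**Figure D1:**
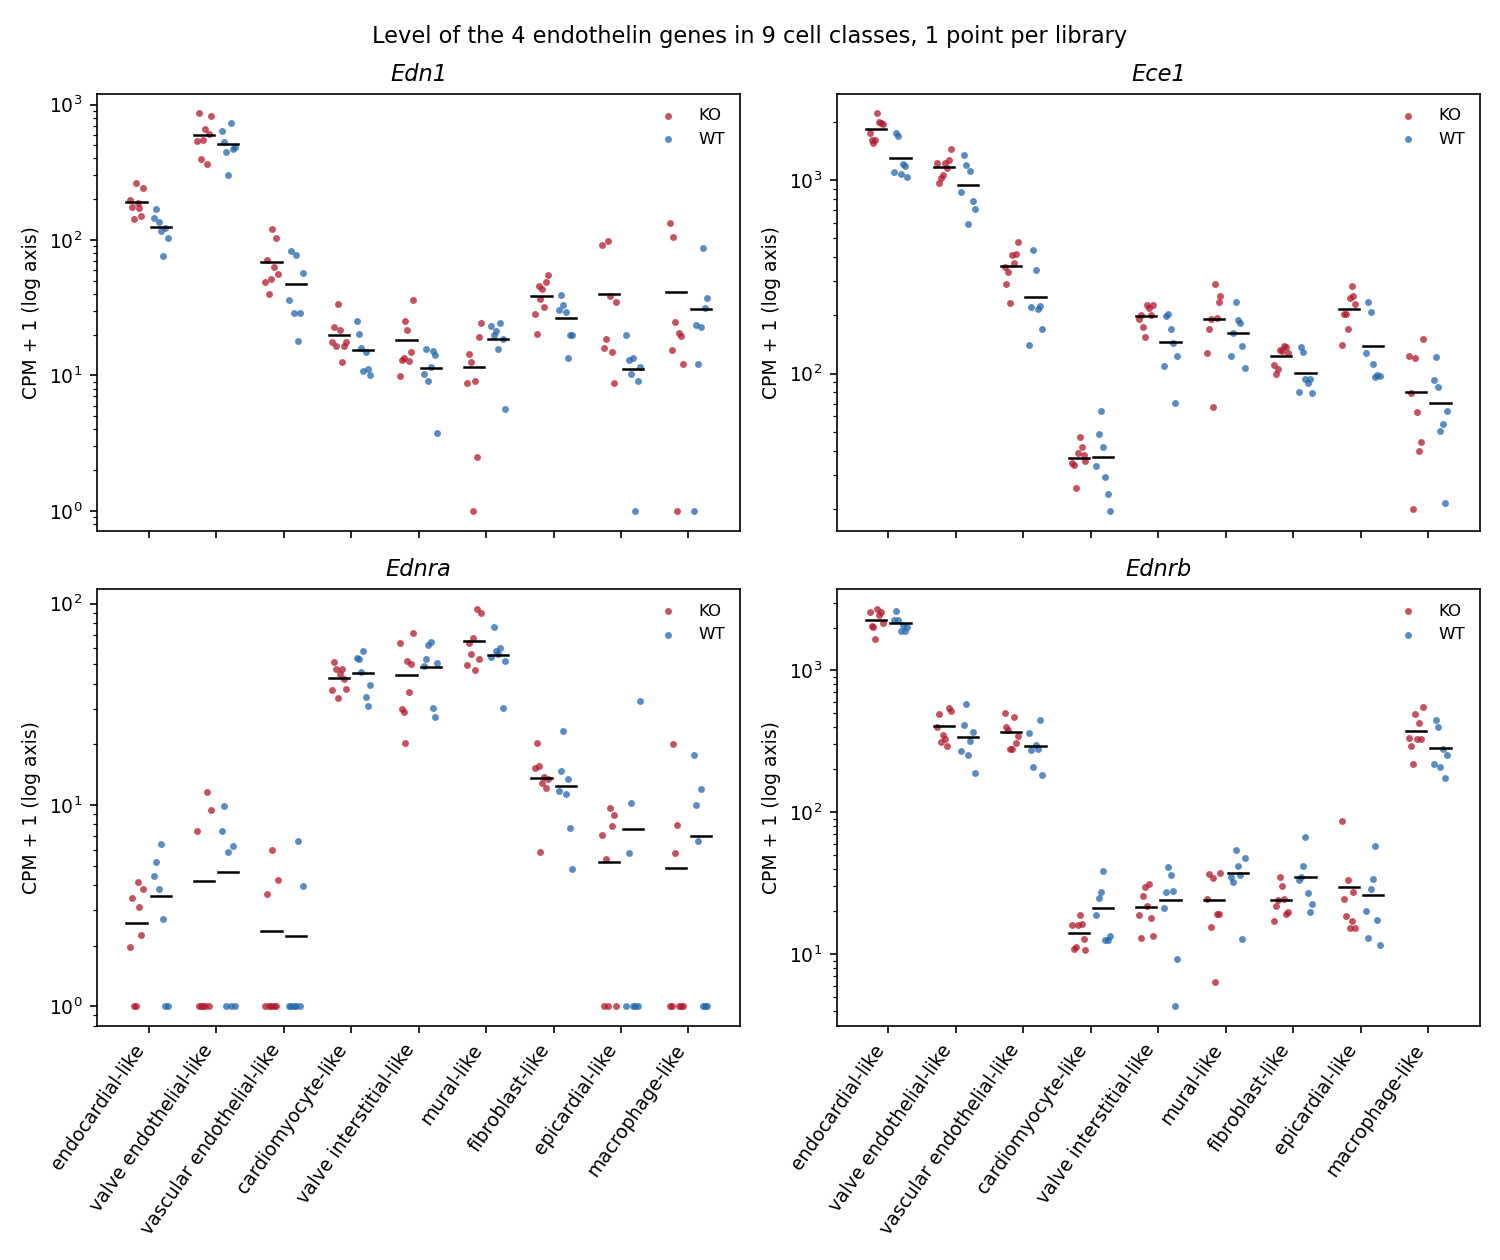
Level of each gene (CPM + 1, log axis) in 9 cell classes, with 1 point per library, KO to the left of WT, and a bar at the mean. Edn1, Ece1 and Ednrb are high at the left, in the endothelial classes, and Ednra in cardiomyocyte-like, valve interstitial-like and mural-like cells, where its class means over the 15 libraries lie between 42.9 and 59.6 CPM.

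Ece1 was highest in the endocardium. It averaged 1578 ± 378 CPM in endocardial-like cells, 1062 ± 243 in valve endothelial-like and 308 ± 104 in vascular endothelial-like cells, and 58.3% of its 32947 UMIs were in endocardial-like cells. The 2 steps, of 0.57 ± 0.20 and 1.80 ± 0.46 on the log2(CPM + 10) scale, were present in 15 of 15 libraries each (exact sign-flip permutation test, adjusted p = 9.99e-05 each). Between these 2 classes the order was the reverse of that of Edn1: ligand RNA was higher in valve endothelial-like cells and enzyme RNA in endocardial-like cells.

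Outside the endothelium Ece1 was lower. Epicardial-like (179 ± 63.4 CPM), mural-like (176 ± 59.2) and valve interstitial-like cells (173 ± 45.7) did not differ beyond their spread (adjusted p = 0.942 and 0.983 for the neighbouring pairs). Fibroblast-like cells (111 ± 21.998), macrophage-like cells (74.6 ± 39.8) and cardiomyocyte-like cells (35.97 ± 11.03) were lower, and each of these steps passed the exact permutation test (adjusted p = 0.000284, 0.00341 and 0.00169). At 1000 UMIs per cell, 75.6% of endocardial-like cells had an Ece1 UMI (79.6% without thinning), 60.9% of valve endothelial-like and 25.1% of vascular endothelial-like cells, against 9.35% of erythroid-like cells (460 cells). Macrophage-like cells, at 5.88%, and cardiomyocyte-like cells, at 3.69%, lay below the erythroid-like share, and those values are read as background. Fibroblast-like cells were at 10.7% (9.88 to 11.6), an interval that overlaps that of the erythroid-like share (6.85 to 12.4). Their Ece1 cannot be told apart from background by this measure. The erythroid-like cells, before thinning, were 428 WT and 95 KO cells.

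Within endocardial-like cells, 89.8% of the 995 cells with an Edn1 UMI also had an Ece1 UMI, against 77.3% of the cells without one. In valve endothelial-like cells the shares were 78.7% of 545 cells and 64.1%. Deeper cells are more likely to show any gene, and these shares were not thinned.

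Ednra had most of its RNA in the muscle and mesenchyme of the heart. Cardiomyocyte-like cells held 68.7% of the 3875 Ednra UMIs, since they were 21479 of the kept cells, followed by mural-like (12.3%), valve interstitial-like (8.46%) and fibroblast-like cells (5.19%). Mural-like cells, led by Fbln5, Clca2 and Eln, had the highest level of these 4 classes, 59.6 ± 16.3 CPM. Valve interstitial-like cells had 45.0 ± 16.0 CPM, lower in 11 of 15 libraries (0.36 ± 0.53 on the log2(CPM + 10) scale, exact sign-flip permutation test, adjusted p = 0.0251), and within the 8 KO libraries or the 7 WT libraries alone this step did not pass (adjusted p = 0.104 and 0.293). Cardiomyocyte-like cells, at 42.9 ± 8.17 CPM, did not differ from valve interstitial-like cells beyond the spread (adjusted p = 0.939). Fibroblast-like cells, at 12.1 ± 4.81 CPM, were below cardiomyocyte-like cells in 15 of 15 libraries (adjusted p = 9.99e-05).

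The endothelial classes had almost no Ednra. It averaged 3.39 ± 3.99 CPM in valve endothelial-like, 2.02 ± 1.67 in endocardial-like and 1.29 ± 2.02 in vascular endothelial-like cells, from 12, 25 and 5 UMIs in all. At 1000 UMIs per cell, 5.94% of mural-like, 4.46% of valve interstitial-like and 4.44% of cardiomyocyte-like cells had an Ednra UMI, against 0.163% of endocardial-like and 0.217% of erythroid-like cells. Without thinning the shares in the first 3 of these classes were 11.7%, 6.46% and 10.4%, so most cells of these classes showed no Ednra UMI at this depth.

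Among the 7 cardiomyocyte-like clusters the Ednra level differed. The 3 clusters with Sln among their leading genes, which marks atrial muscle in mouse, averaged 66.0 ± 33.0, 58.1 ± 15.1 and 49.7 ± 15.1 CPM (SD over 15 libraries). The clusters led by Gtsf1 and Myh7 and by Myl2 and Mb, ventricular in these markers, averaged 41.6 ± 9.77 and 35.9 ± 15.7 CPM. The clusters led by Rrm2 and by Cenpa, genes of dividing cells, averaged 33.7 ± 9.57 and 28.7 ± 8.69 CPM. These cluster values are a description with no test, and median depth ranged between 689 and 4338 UMIs over these clusters.

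Ednrb was the receptor of the endocardium. Endocardial-like cells averaged 2214 ± 315 CPM and held 80.1% of its 33410 UMIs. They exceeded valve endothelial-like cells, the next class, in 15 of 15 libraries, by 2.59 ± 0.43 on the log2(CPM + 10) scale (exact sign-flip permutation test, adjusted p = 9.99e-05). Valve endothelial-like (372 ± 113 CPM), vascular endothelial-like (333 ± 92.2) and macrophage-like cells (329 ± 112) did not differ beyond their spread (adjusted p = 0.357 and 0.861 for the neighbouring pairs). The other 5 of the 9 classes compared were at or under 29.1 CPM, and the step down to mural-like cells passed (3.14 ± 0.66, 15 of 15 libraries, adjusted p = 9.99e-05).

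Valve endothelial-like cells, with the most Edn1, exceeded vascular endothelial-like cells in Ednrb by 0.15 ± 0.54 on the log2(CPM + 10) scale, in 9 of 15 libraries. At 1000 UMIs per cell, 79.3% of endocardial-like cells had an Ednrb UMI, 20.9% of valve endothelial-like and 23.5% of vascular endothelial-like cells. Erythroid-like cells, at 6.96%, were taken as the background. Mural-like (2.48%), fibroblast-like (2.50%), epicardial-like (2.82%), valve interstitial-like (2.1%) and cardiomyocyte-like cells (1.73%) lay below it. Ednrb in these classes cannot be told apart from background by this measure. Unthinned, the endocardial-like share was 80.8%.

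Macrophage-like cells, led by Cxcl2, C1qb and Ccl4, carried Ednrb in 23.5% of cells at 1000 UMIs (95% exact binomial interval 20.5 to 26.8), above the erythroid-like share of 6.96% (4.81 to 9.68). In macrophage-like cells there were 14.49 Ednrb UMIs per UMI of the endocardial gene Npr3 and 24.0 per UMI of Emcn, against 2.60 and 2.90 in endocardial-like cells. Of the 953 macrophage-like cells with no UMI of the endothelial genes checked, 26.2% had Ednrb.

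A further source of Ednrb was a cluster of 277 cells that mixes neural, glial, pigment and epithelial genes and is called by its leading genes, Dct, Stmn2 and Nefl. Of its 46 cells with a UMI of the pigment genes Dct or Pmel, 69.6% had Ednrb, at 1123 CPM. This set of cells was made after the values were seen and carries no test.

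**Figure D2:**
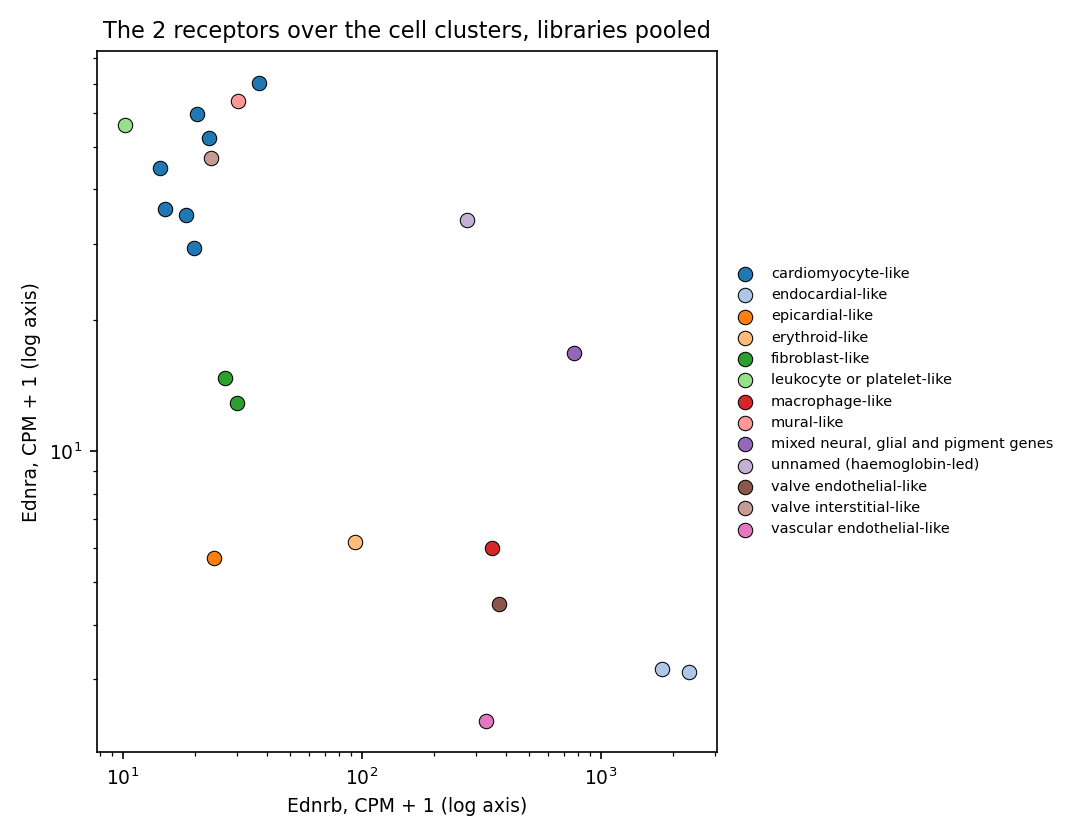
Level of Ednra (vertical) against Ednrb (horizontal), both as CPM + 1 on log axes, with 1 point per cluster, libraries pooled and coloured by class. The cardiomyocyte-like, mural-like and valve interstitial-like clusters, high for Ednra, are low for Ednrb. The 2 endocardial-like clusters at the lower right have 1808 and 2333 CPM of Ednrb and 2.16 and 2.12 CPM of Ednra. The unnamed haemoglobin-led cluster has 33.0 CPM of Ednra, within the range of the cardiomyocyte-like clusters, with 274 CPM of Ednrb. The mixed neural cluster has 15.8 CPM of Ednra and 775 CPM of Ednrb. The small leukocyte or platelet-like cluster, with 18 Ednra and 3 Ednrb UMIs, is plotted too.

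Across the 135 sums of 9 classes and 15 libraries, which share libraries and depth, the 2 receptors ran opposite ways (Pearson r = -0.67 on the log2(CPM + 10) scale), and Edn1 ran with Ece1 (r = 0.75) and Ednrb (r = 0.66). Of 9665 genes, those most like Edn1 were Fgd6, Tppp, Vwf, Gja4 and Cd40 (r between 0.82 and 0.84). Those most like Ece1 were Calcrl, Aplp2, Foxc1, Myo6 and Cgnl1 (r between 0.88 and 0.89), with Edn1 at rank 129. Among those most like Ednra were Cnn1, Tagln, Palld and Hspb6 (r between 0.82 and 0.85), of which Cnn1 and Tagln are contractile genes of smooth muscle. Those most like Ednrb were Gngt2, Lgals9, Abi3, Prkch and Arap3 (r between 0.90 and 0.93).

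KO and WT hearts were compared on counts summed per library and class. Edn1 and Ece1 were higher on average in KO than in WT endocardial-like cells, and no member passed the threshold of an adjusted p of 0.05 in any class. The 4 genes gave 30 tests over 9 classes and all kept cells, the remaining combinations having too few counts. By edgeR's quasi-likelihood test with Benjamini-Hochberg adjustment over all genes, 0 of the 30 passed and 12 had an unadjusted p under 0.05. Over all genes 0.297% of 8414 passed in endocardial-like cells (13.2% at an unadjusted p under 0.05) and 0.208% of 13445 over all kept cells (15.9%). At an unadjusted p under 0.05 the shares of all genes were 10.2% in valve endothelial-like, 9.7% in vascular endothelial-like, 16.8% in cardiomyocyte-like, 13.7% in valve interstitial-like, 9.8% in mural-like, 14.7% in fibroblast-like, 11.5% in epicardial-like and 9.22% in macrophage-like cells. Fewer cells of a type and less RNA per cell cannot be told apart in the sums over all kept cells.

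Endocardial-like Edn1 was 141 CPM in the lowest, 180 in the median and 265 in the highest KO library, against 75.7, 122 and 167 CPM in WT libraries. The groups overlapped, and 6 of 8 KO libraries lay above the highest WT library. The fitted log2 KO over WT was 0.60 (SE 0.16), with an adjusted p of 0.0848 by edgeR. WT replicate 5, the only WT library on the flow cell of the KO libraries, had the lowest Edn1, 75.7 CPM.

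Endocardial-like Ece1 was 1560, 1844 and 2207 CPM (lowest, median, highest) in KO libraries, against 1031, 1183 and 1744 CPM in WT libraries. The 4 tm4b libraries and 1 tm4a library were above all WT libraries, and WT replicate 5, at 1212 CPM, was below all 8 KO libraries. The log2 KO over WT was 0.49 (SE 0.13), with an adjusted p of 0.102 by edgeR. Ednrb in the same cells was 1651, 2297 and 2714 CPM in KO libraries and 1877, 2082 and 2611 CPM in WT libraries, with a log2 value of 0.07 (SE 0.12) and an adjusted p of 0.860 by edgeR. The groups overlapped for all 3 genes.

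Some measures moved with these values. The shallower of the 2 endocardial-like clusters, which has the heat shock gene Hspa1b among its leading genes, held 39.9% ± 5.57 of endocardial-like cells in KO libraries and 28.4% ± 7.26 in WT libraries. Within the deeper cluster alone Ece1 averaged 1866 ± 253 CPM in KO and 1310 ± 299 in WT libraries, and within the shallower one 1585 ± 131 and 1088 ± 267 CPM. For Edn1 the values were 183 ± 50.05 and 126 ± 27.6 CPM in the deeper cluster, and 260 ± 116 and 94.1 ± 55.4 CPM in the shallower. In a comparison added after the clusters and their depths were seen, Edn1 passed within the shallower cluster alone (log2 1.51, SE 0.34; adjusted p = 0.0222 by edgeR) and not within the deeper one (0.50; adjusted p = 0.171). The 9 endocardial markers together made 0.468% ± 0.0294 of UMIs in KO and 0.442% ± 0.0558 in WT endocardial-like cells, and the 15 cardiomyocyte markers 0.247% (range 0.144 to 0.373) and 0.375% (range 0.230 to 0.451), with no marker of either list at 0. At 1000 UMIs per cell, 81.2% of KO and 68.9% of WT endocardial-like cells had an Ece1 UMI, and 12.2% and 10.1% an Edn1 UMI. The part of marker RNA and of depth in the Edn1 and Ece1 values was not tested.

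**Figure D3:**
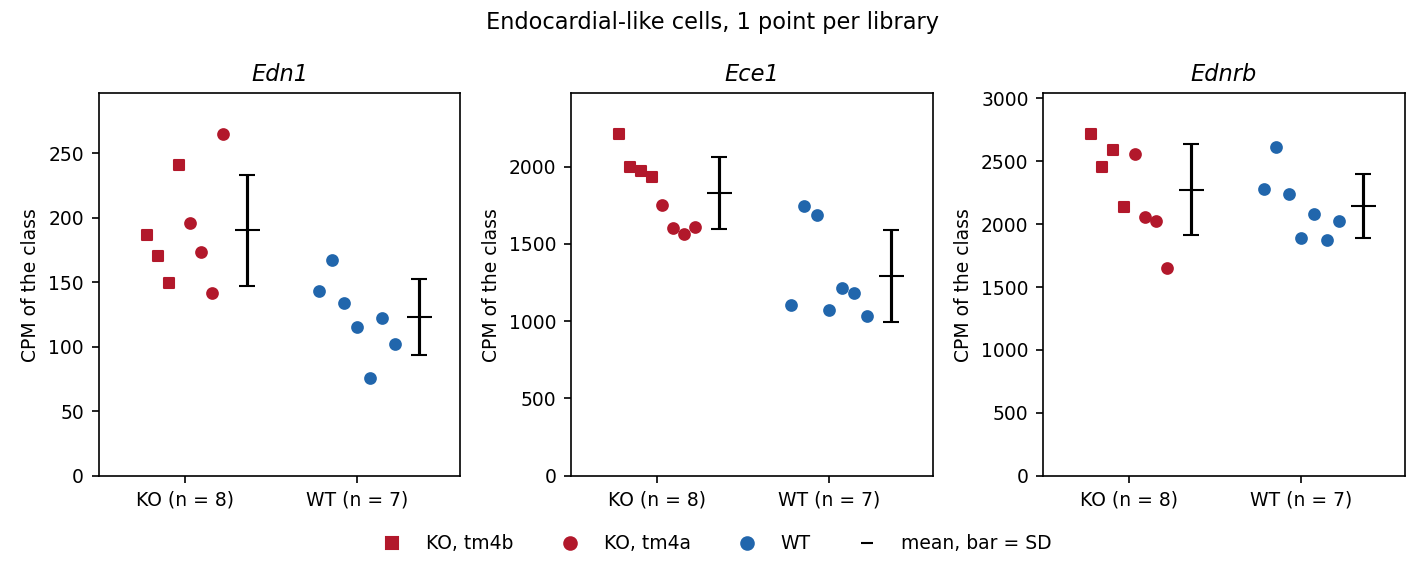
CPM of Edn1, Ece1 and Ednrb in endocardial-like cells, with 1 point per library (squares tm4b, red circles tm4a, blue circles WT) and the mean with its SD beside each group. For Edn1 6 of 8 and for Ece1 5 of 8 KO libraries lie above the highest WT library, and the Ednrb ranges overlap almost fully.

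The call for Edn1 and Ece1 depended on the setting, and most alternatives left both short of the threshold. DESeq2 on the same counts passed both genes in endocardial-like cells (adjusted p = 0.0258 and 0.0201), where it called 1.43% of genes, and over all kept cells (0.0257 and 0.0330), where it called 3.21%. Leaving out WT replicate 3 brought endocardial-like Edn1 to an adjusted p of 0.0484 and Ece1 to 0.0322 by edgeR, with log2 values of 0.63 and 0.57. Over all kept cells that fit called 401 genes, against 28 with all libraries. Leaving out each library in turn, 4 to 150 genes passed in endocardial-like cells, against 25. No other fit of that kind passed either gene. In endocardial-like cells neither passed with counts summed per litter, a replicate block, RLE size factors or no low-count filter. Nor did they at Leiden resolution 1.5, with called doublets kept or without the 5% highest doublet scores. A fit with flow cell as a term, in which WT replicate 5 alone stands for WT on the shared flow cell, gave log2 values of 1.29 and 0.57 with adjusted p of 0.239 and 0.609 by edgeR.

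In valve endothelial-like cells, where Edn1 is highest, KO libraries had 366, 578 and 860 CPM (lowest, median, highest) and WT libraries 301, 487 and 726 CPM. The groups overlapped over most of their range. The log2 KO over WT was 0.21 (SE 0.19; adjusted p = 0.765 by edgeR), and 0.0218% of 4586 genes passed in this class. The KO effect on Edn1 in valve endothelial-like minus that in endocardial-like cells was -0.39 on the log2(CPM + 10) scale (two-sided permutation test over libraries, p = 0.162, adjusted p = 0.298 over the 4 genes). The matching differences were 0.17 for Ece1 in endocardial-like minus valve endothelial-like cells, 0.34 for Ednra in mural-like minus valve interstitial-like cells and -0.20 for Ednrb in endocardial-like minus valve endothelial-like cells, with adjusted p between 0.298 and 0.373 by the same permutation test.

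Ece1 had a positive fitted value in 9 of its 10 tests. Over all kept cells it was 228, 302 and 409 CPM (lowest, median, highest) in KO libraries and 151, 213 and 267 CPM in WT libraries, with a log2 value of 0.44 (SE 0.13; adjusted p = 0.116 by edgeR). In epicardial-like cells it averaged 215 ± 45.8 CPM in KO and 138 ± 57.2 in WT libraries, and in valve interstitial-like cells 198 ± 25.2 and 144 ± 48.7 CPM. The exception was the cardiomyocyte-like class, with 35.8 ± 6.25 CPM in KO and 36.1 ± 15.4 in WT libraries. Edn1 was positive in 6 of 6 tests, with 58.6 ± 11.6 CPM in KO and 41.8 ± 4.94 in WT libraries over all kept cells (log2 0.46, SE 0.13; adjusted p = 0.0926 by edgeR).

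Ednra showed no difference beyond the spread in its 5 tests. In cardiomyocyte-like cells it was 32.8, 42.6 and 50.5 CPM (lowest, median, highest) in KO libraries and 30.1, 44.9 and 57.5 CPM in WT libraries, with a log2 value of -0.09 (SE 0.14; adjusted p = 0.776 by edgeR), and 1.42% of 11278 genes passed in this class. In mural-like cells it was 45.7, 59.0 and 93.4 CPM in KO libraries and 29.3, 55.3 and 75.9 CPM in WT libraries (log2 0.21, SE 0.21; adjusted p = 0.770 by edgeR), where 0.0164% of 6084 genes passed. Among WT libraries the cardiomyocyte-like values were 52.4, 52.3, 44.9 and 57.5 CPM in replicates 1 to 4 and 33.4, 30.1 and 38.4 CPM in replicates 5 to 7, so the WT libraries of litters 1 and 2 lay above those of litters 3 and 4. Without WT replicates 1 to 4 the log2 value turned to 0.21 (adjusted p = 0.370 by edgeR), and with flow cell as a term to 0.33 (adjusted p = 0.791).

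In cardiomyocyte-like, mural-like and fibroblast-like cells, where the share of cells with Ednrb lay below the erythroid-like background, the mean of Ednrb was lower in KO than in WT libraries without passing the test. It was 13.1 ± 3.04 and 20.2 ± 9.72 CPM in cardiomyocyte-like cells (log2 -0.63, SE 0.24; adjusted p = 0.173 by edgeR), 23.1 ± 11.1 and 36.01 ± 13.2 CPM in mural-like cells (log2 -0.71, SE 0.30; adjusted p = 0.450), and 23.0 ± 6.01 and 34.2 ± 15.9 CPM in fibroblast-like cells (log2 -0.59, SE 0.23; adjusted p = 0.243). The 9 endocardial markers, none at 0, moved the same way there: 0.00577% ± 0.000800 of UMIs in KO and 0.00809% ± 0.00144 in WT cardiomyocyte-like cells, 0.0127% ± 0.00169 and 0.0172% ± 0.00391 in mural-like cells, and 0.0147% ± 0.00142 and 0.0169% ± 0.00302 in fibroblast-like cells. Their part in the Ednrb values was not tested. In epicardial-like cells, also below that background, Ednrb was 28.7 ± 23.7 CPM in KO and 25.1 ± 16.3 in WT libraries, too few counts for the test. In macrophage-like cells Ednrb was 370 ± 109 CPM in KO and 282 ± 102 in WT libraries (log2 0.35, SE 0.22; adjusted p = 0.670 by edgeR).

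**Figure D4:**
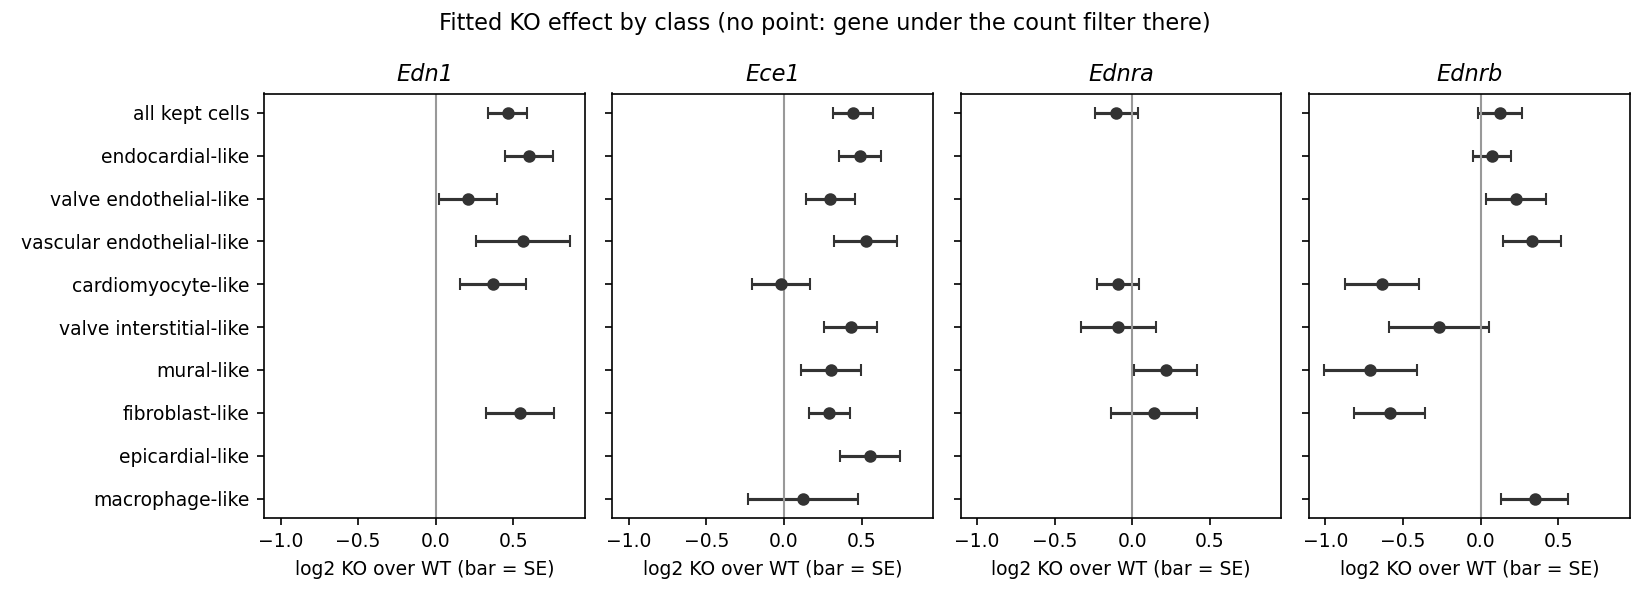
Fitted log2 KO over WT with its SE for each gene in all kept cells and in 9 classes, from edgeR. Ece1 lies right of 0 in 9 of 10 rows and Edn1 in 6 of 6, Ednra scatters around 0, and Ednrb lies left of 0 in the cardiomyocyte-like, valve interstitial-like, mural-like and fibroblast-like rows.

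Between the KO alleles, tm4b libraries had 2028 ± 122 CPM of endocardial-like Ece1 and tm4a libraries 1632 ± 83.9 (SD, n = 4 each), and the 4 tm4b values were all above the 4 tm4a values. The log2 tm4b over tm4a was 0.29 (SE 0.11; adjusted p = 0.244 by edgeR), and no member passed in any class. In all kept cells 15.3% of 13531 genes passed in this comparison, and in endocardial-like cells 0.593% of 8604. The share was 0.663% in valve endothelial-like, 1.54% in vascular endothelial-like, 12.5% in cardiomyocyte-like, 3.32% in valve interstitial-like, 0.411% in mural-like, 8.72% in fibroblast-like, 2.96% in epicardial-like and 0.0% in macrophage-like cells (360 genes at an unadjusted p under 0.05 by edgeR; DESeq2 was not run on the alleles). Endocardial-like Edn1 was 187 ± 39.1 CPM in tm4b and 194 ± 52.2 in tm4a libraries.

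Of the other genes of the pathway, few passed between KO and WT. In endocardial-like cells 49 genes of 6 lists were tested, of which 1 rose and 0 fell. The gene was Jun, the AP-1 subunit, at 1955 ± 443 scaled CPM in KO and 1150 ± 339 in WT libraries (log2 0.76, SE 0.17; adjusted p = 0.0497 by edgeR, scaled CPM being CPM after edgeR's TMM scaling). It belongs to the list of 12 genes that act on Edn1 in endothelium, of which 12 were tested, with a median log2 value of 0.18 against -0.02 over all genes. The Jun call was lost with counts summed per litter (adjusted p = 0.522 by edgeR), with flow cell as a term (0.305), with called doublets kept (0.104) and in the shallower endocardial-like cluster alone (0.0607). It was also lost in 11 of 15 fits that left out 1 library, passing only without WT replicate 2 or 3 or KO replicate 1 or 6 (adjusted p between 0.0167 and 0.107). The 19 tested genes of receptor signalling (such as Gq subunits and phospholipases) had a median close to 0, and the 8 tested brakes (Rgs proteins, kinases and arrestins) 0.19. The 5 tested relatives and processing proteases had a median of 0.02, the 2 tested neural crest targets 0.24 and the 3 tested conduction genes -0.21, none passing.

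Gja5, the connexin of atrial and conduction-system muscle, which endothelin is known to raise in chick embryonic hearts, fell in KO cardiomyocyte-like cells. It was at 49.5 ± 6.18 scaled CPM in KO and 78.9 ± 17.0 in WT libraries (log2 -0.67, SE 0.13; adjusted p = 0.0163 by edgeR). Over all kept cells it was at 28.8 ± 3.88 in KO and 45.9 ± 10.4 in WT libraries (log2 -0.67, SE 0.14; adjusted p = 0.0478 by edgeR). The 7 tested conduction genes had a median log2 value of -0.32 in cardiomyocyte-like cells, against -0.02 over all genes, and Gja5 was the only one of them to pass. Both Gja5 calls were lost with counts summed per litter (adjusted p = 0.377 in cardiomyocyte-like and 0.601 in all kept cells by edgeR). With flow cell as a term the log2 value turned to 0.0077 in cardiomyocyte-like and 0.075 in all kept cells. Over all kept cells the call was also lost in 11 of 15 fits that left out 1 library, passing only without WT replicate 1, 3 or 5 or KO replicate 2 (adjusted p between 0.0070 and 0.104). It was lost too with no low-count filter (0.0535), without WT replicates 1 to 4 (0.0603) and without the 5% highest doublet scores (0.0514).

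Nppa, the atrial natriuretic peptide of cardiomyocytes, fell in KO valve interstitial-like cells (126 ± 46.0 scaled CPM in KO and 273 ± 71.6 in WT libraries; log2 -1.14, SE 0.19; adjusted p = 0.00677 by edgeR), where 0.407% of 7122 genes passed. It fell also in fibroblast-like cells (112 ± 35.4 and 269 ± 66.2 scaled CPM; log2 -1.26, SE 0.18; adjusted p = 0.00145 by edgeR), where 0.141% of 9191 genes passed. The 15 cardiomyocyte markers together made 0.277% ± 0.0819 of UMIs in KO and 0.415% ± 0.0882 in WT valve interstitial-like cells, and 0.220% ± 0.0729 and 0.344% ± 0.0900 in fibroblast-like cells, with none at 0. Nppa is itself among these 15 markers, so its own UMIs are part of these sums. The part of the other markers in the Nppa values was not tested. With counts summed per litter the adjusted p of Nppa was 0.403 in valve interstitial-like and 0.0951 in fibroblast-like cells by edgeR, and with flow cell as a term 0.233 and 0.157. In the other classes no gene of the lists passed. In vascular endothelial-like cells 0.0% of 4072 genes passed by edgeR (395 at an unadjusted p under 0.05, and 5, or 0.123%, by DESeq2), in epicardial-like cells 0.537% of 4659 and in macrophage-like cells 0.0349% of 2862. The 2 with the smallest p were Nppa (log2 -1.22; adjusted p = 0.0577 by edgeR) and Mef2c (0.88; 0.320) in valve endothelial-like cells, Nppa (-0.71; 0.411) and Rgs3 (-0.60; 0.497) in vascular endothelial-like cells, and Nppa (-1.09; 0.117) and Rock1 (-0.71; 0.194) in mural-like cells. They were Nppa (-0.87; 0.199) and Rock2 (-0.54; 0.223) in epicardial-like cells and Rgs2 (0.67; 0.162) and Hif1a (-0.66; 0.404) in macrophage-like cells.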

How the data were processed

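The authors deposited a joined table of whole UMI counts, with genes by cell barcode, and no scaling. The submitters' processing notes name bcl2fastq 2.17, Seurat 2.1 and mm10 without saying what each was used for. The lowest barcode of each library in this table has 251 detected genes and the mitochondrial share ends at 10%, a filter already present in the deposited counts. Totals per library and cells per class set the precision. Replicates are libraries labelled as separate replicates. WT replicate 4 carries replicate number 3 in its description, and the titles were used.

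Cells with at least 300 genes and at most 30% mitochondrial UMIs were kept and Scrublet's calls removed (scanpy 1.11.5). Cells were clustered on 2000 variable genes without Edn1, Ece1, Ednra, Ednrb, their relatives, Adamts19, LacZ, sex-linked and mitochondrial genes (30 components, 20 neighbours, Leiden resolution 1.0, leidenalg 0.10.2). A class needed at least 3 markers over 2-fold higher. Levels are CPM of a class in a library (at least 20 cells). KO against WT was tested by edgeR 4.0.16 (R 4.3.3; TMM, filterByExpr, quasi-likelihood, at least 10 cells per class and library; DESeq2 1.42.0 as alternative), classes against each other by exact sign-flip on log2(CPM + 10), and the difference of effects by permuting libraries. Tests were tried on simulated data.

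The genes, lists and markers were chosen with earlier results of these data known. Named were the 4 genes in every class, list genes passing 0.05 or else the 2 with the smallest p, and the 5 genes most correlated with each member. Some results under these rules are not reported here. The p-values measure the spread between these libraries.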

Additional observations from a re-analysis of the deposited data

Results flagged for a closer look

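Over all kept cells, KO replicate 4 had 21.2 CPM of Ednra, while the other 7 KO libraries lay between 28.8 and 33.8 CPM, a gap larger than Dixon's 95% limit for the group. This was the only such sample in 60 groups examined, and chance alone gives about 1 in 20 groups.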

How the results depend on the processing

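Of 742 values for the 4 genes between KO and WT under other settings, 709 kept their direction and their side of the threshold. Edn1 and Ece1 passed by DESeq2 over all kept cells (0.46 and 0.44) and in endocardial-like cells (0.60 and 0.49), and in endocardial-like cells without WT replicates 1 to 4 (0.85 and 0.63). Without WT replicates 1 to 4, 4 values of the members came to pass with unchanged direction, these endocardial-like ones among them. Edn1 also passed in the shallower endocardial-like cluster alone (1.51), a setting chosen after seeing the data. Leaving out 1 library at a time gave endocardial-like log2 values of 0.52 to 0.69 for Edn1 and 0.44 to 0.57 for Ece1, -0.15 to 0.014 for Ednra and -0.12 to 0.15 for Ece1 in cardiomyocyte-like cells, and -0.0020 to 0.36 for Ece1 in macrophage-like cells. With flow cell as a term the direction turned for Ednra over all kept cells (0.31), in cardiomyocyte-like (0.33) and in valve interstitial-like cells (0.58), for Edn1 in valve endothelial-like cells (-0.30), and for Ece1 (0.36) and Ednrb (0.20) in cardiomyocyte-like cells. Without WT replicates 1 to 4 it turned for Ednra (0.32, 0.21 and 0.33 in the same order), for Ece1 in cardiomyocyte-like cells (0.55, then passing at adjusted p = 0.0453 by edgeR), and for Ednrb in cardiomyocyte-like (0.073) and valve interstitial-like cells (0.32). In cardiomyocyte-like cells Ece1 also turned with counts summed per litter (0.0027) and at Leiden resolution 1.5 (0.013). The causes were not tested.

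Replicate numbers did not pair the samples (correlations of deviations between -0.57 and 0.14). A replicate block left 2 genes called over all kept cells and 0 in endocardial-like cells, and turned Ece1 in cardiomyocyte-like (0.076) and macrophage-like cells (-0.034). Under the block Jun in endocardial-like cells (adjusted p = 0.126 by edgeR) and Gja5 in cardiomyocyte-like (0.146) and all kept cells (0.355) no longer passed, while Nppa passed in valve interstitial-like (0.0278) and fibroblast-like cells (0.0114). With flow cell as a term Gja5 turned to 0.0077 and 0.075. The 28 genes called over all kept cells by edgeR became 17 with no low-count filter, 6 with flow cell as a term, 2 per litter, 976 without WT replicates 1 to 4, 432 by DESeq2, and 5 to 401 leaving out 1 library, the last without WT replicate 3. The 25 in endocardial-like cells became 59, 9, 0, 529, 120 and 4 to 150 under the same settings, 40 without the 5% highest doublet scores and 10 in the shallower cluster.

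Between classes, Ednra in mural-like over valve interstitial-like cells no longer passed in KO libraries alone (0.52) or WT libraries alone (0.18). Steps between classes that did not differ in all libraries changed sign. For Edn1 these were epicardial-like minus cardiomyocyte-like (-0.038 with 1 CPM added, -0.31 in WT) and valve interstitial-like minus mural-like cells (-0.42 in WT, -0.010 without the highest doublet scores, -0.066 at resolution 1.5). For Ece1 they were epicardial-like minus mural-like (-0.25 in WT, -0.10 at resolution 1.5) and mural-like minus valve interstitial-like cells (-0.15 in KO). For Ednra they were valve interstitial-like minus cardiomyocyte-like (-0.00013 with 1 CPM added, -0.031 in KO, -0.14 at resolution 1.5) and epicardial-like minus macrophage-like cells (-0.068 in WT). For Ednrb they were vascular endothelial-like minus macrophage-like (-0.032 without the highest doublet scores), mural-like minus fibroblast-like (0.012 with 50 CPM added, 0.063 in WT, 0.044 without the highest doublet scores, 0.066 at resolution 1.5), fibroblast-like minus epicardial-like (-0.092 in KO) and epicardial-like minus valve interstitial-like cells (-0.062 without the highest doublet scores). Thinning moved the shares of cells with a UMI to 27.3% for Edn1, 75.6% for Ece1, 5.94% for Ednra and 79.3% for Ednrb in the classes highest for each. With called doublets kept no valve endothelial-like class was named, so that setting gave no value there.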
